A study of Homo sapiens with 21 samples.

Results

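Cells detect foreign or misplaced nucleic acid with a small set of receptor proteins, and 10 genes of this system were followed here: IFIH1, DHX58, TLR3, MAVS, CGAS, IFI16, AIM2, ZBP1, TREX1 and SAMHD1. They were taken from the table by gene symbol. All 10 were among its 16383 genes, and 8 were among the 11579 genes that passed a filter on low values (a normalised read count of at least 10 in at least 3 libraries). AIM2 and ZBP1 did not pass it and are given as reads only.

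RNA was measured by sequencing of poly(A) RNA from IMR90 cells, a human lung fibroblast line labelled wild type, in 7 groups of 3 libraries. One group was proliferating and neither irradiated nor transfected. The other 6 groups were irradiated, which makes these cells senescent (alive but permanently out of the cell cycle), given siRNA with the transfection reagent DharmaFECT on days 4 and 7, and harvested on day 10. Their siRNA was NT3 or NT4, which target no gene, or was directed at CCND1 (the gene of cyclin D1), CDK4, CDK6 (the kinases that cyclin D1 activates), or CDK4 and CDK6 together, called dual knockdown below. The siRNA was used at 5 nM, and whether the dual group received that amount in total or of each siRNA is not stated. Irradiation and transfection were always given together, so their effects cannot be told apart in a comparison with proliferating cells. One siRNA name is given per target, so effects of a reagent and of its target cannot be told apart either. The series' design text numbers the non-targeting siRNAs NT1 and NT2, and the sample titles' numbers 3 and 4 are used here. The labels do not say that the 3 libraries of a group came from separate cultures, so p-values measure the spread between these libraries, which may be technical.

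By way of background, RNA sensors and DNA sensors use different adaptors to reach the same outcome. The helicases RIG-I (gene RIGI) and MDA5 (gene IFIH1) bind double-stranded RNA in the cytosol and act through MAVS, an adaptor on the outer mitochondrial membrane. The enzyme cGAS (gene CGAS) binds double-stranded DNA and makes a cyclic dinucleotide that activates STING. Both routes lead through the kinase TBK1 to type I interferon, which in turn induces many of the sensors themselves. The nuclease TREX1 and the dNTP-cleaving enzyme SAMHD1 keep self nucleic acid from triggering these receptors. Senescent cells are known to carry fragments of their own chromatin and mitochondrial nucleic acid in the cytosol.

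Each library had between 12892442 and 21822152 reads over all genes of the table. The siRNA targets were lowered in the groups labelled for them, to between 8.67% (CDK4 in CDK4 knockdown) and 20.6% (CDK6 in dual knockdown) of their mean in the 6 non-targeting libraries. All 11 fibroblast markers passed the filter, and their sum was 606486 to 622735 in proliferating libraries, 453456 to 564136 in non-targeting libraries, 523052 to 596838 in the single knockdowns and 683551 to 868681 in dual knockdown, above all controls. Of 12 leukocyte markers, 3 passed, AIF1 had 0 reads in all libraries and PTPRC had at most 8. The leukocyte sum, nearly all of it CD68, a lysosomal protein gene that fibroblasts also express, was 663 to 698 in proliferating libraries, 909 to 1467 in non-targeting libraries, 896 to 1064 in CCND1, 1530.1 to 1629 in CDK4, 1069 to 1147 in CDK6 and 945 to 1014 in dual knockdown. Of 5 endothelial markers, PECAM1 and CDH5 stayed under the filter, and the sum, nearly all TEK, was 1763 to 1888 in proliferating libraries, 2058 to 3717 in non-targeting libraries, 2888 to 3283 in CCND1, 2219.7 to 2512 in CDK4, 4092 to 4509 in CDK6 and 3441 to 3694 in dual knockdown. Of 6 epithelial markers, CDH1, KRT5, SFTPC and NKX2-1 stayed under the filter, and the sum, nearly all KRT18, was 1653 to 1876 in proliferating libraries, 1048 to 2038 in non-targeting libraries, 1069 to 1183 in CCND1, 1286 to 1453 in CDK4, 863 to 1016 in CDK6 and 1386 to 1571 in dual knockdown. Of 3 plasmacytoid dendritic cell markers, IL3RA stayed under the filter and LILRA4 had 0 reads, and the sum, nearly all TCF4, was 1322 to 1445 in proliferating libraries, 638 to 952 in non-targeting libraries, 597 to 819 in the single knockdowns and 457 to 494 in dual knockdown. The part of such cells in the differences below was not tested. In bulk RNA, a change in the number of expressing cells and a change in RNA per cell cannot be told apart.

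Against proliferating cells, the senescent control cells (the mean of NT3 and NT4) had more RNA of the RNA sensors and of both restraining enzymes, and less of CGAS and MAVS. IFIH1, DHX58, TLR3, SAMHD1 and TREX1 rose, CGAS and MAVS fell, and IFI16 did not pass the threshold. That is 5 of 8 tested genes higher and 2 lower at a limma adjusted p under 0.05, where 32.6% of all tested genes were higher and 36.1% lower. The median log2 fold change of the 8 was 0.74, against -0.026 for all tested genes. Centring each library on its median gene raised the median of all genes by 0.11 and the higher share of all calls from 47.4% to 57.9%. Under that scaling MAVS was no longer past the threshold (-0.16, limma adjusted p = 0.0629) and IFI16 was (0.26, limma adjusted p = 0.00335), while the other 6 calls and their directions stayed.

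Among the knockdowns, CCND1, CDK6 and dual knockdown each lowered 5 or more of the 8 genes, and CDK4 knockdown changed MAVS alone. CCND1 knockdown gave 0 higher and 5 lower of 8, where 16.7% of all tested genes were higher and 14.4% lower. CDK4 knockdown gave 0 higher and 1 lower, where 8.46% and 7.55% of all tested genes were. CDK6 knockdown gave 1 higher and 5 lower, beside 21.1% and 20.8%. Dual knockdown gave 0 higher and 7 lower, beside 22.5% and 21.5%. IFIH1, DHX58, CGAS, IFI16 and SAMHD1 were the 5 that fell in CCND1, CDK6 and dual knockdown. These comparisons share the same 6 control libraries, so they are not separate pieces of evidence. The median log2 fold changes of the 8 were -0.44, -0.050, -0.55 and -0.85 in CCND1, CDK4, CDK6 and dual knockdown, against medians of all tested genes between -0.010 and 0.0031.

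**Figure D1:**
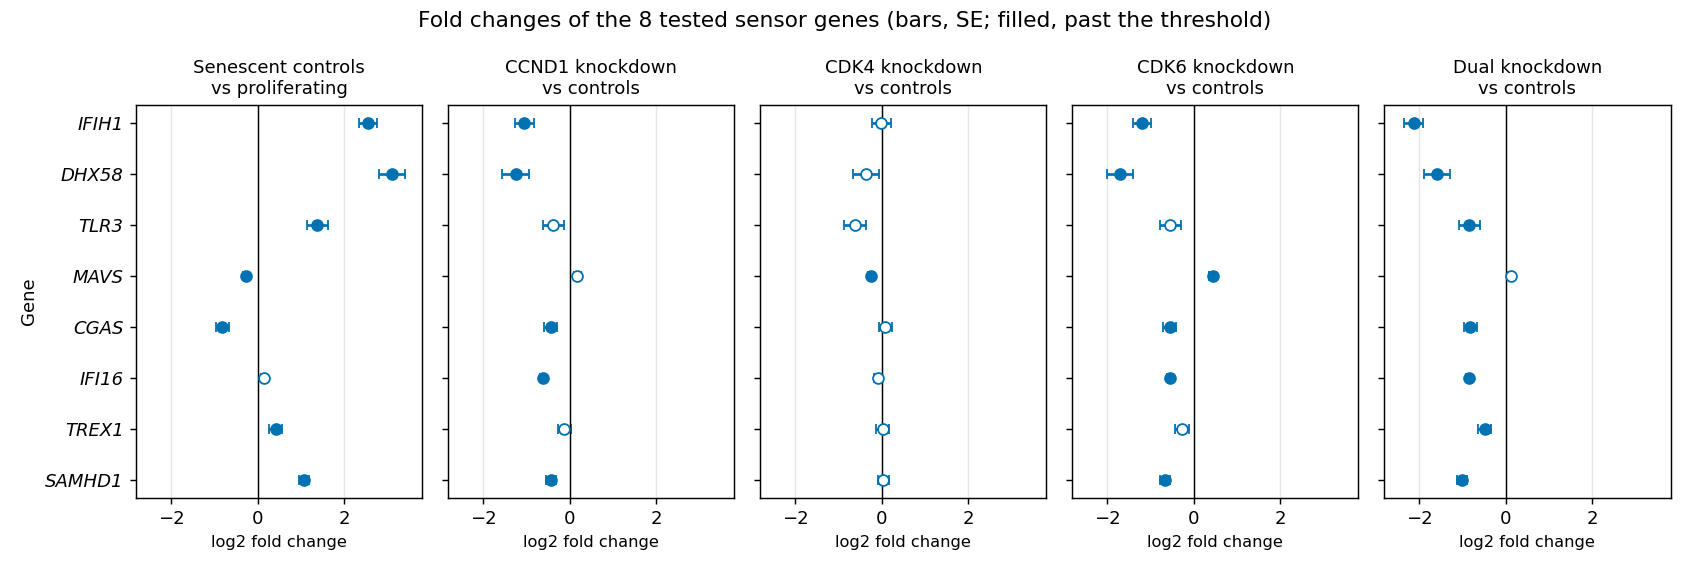
Log2 fold change (x axis) of the 8 tested genes (y axis) in senescent controls against proliferating cells and in each knockdown against the 6 control libraries. Points are limma estimates, bars are standard errors, and filled points passed an adjusted p of 0.05: 7 genes in the first panel, 5, 1, 6 and 7 in the others.

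IFIH1 (ENSG00000115267; chr2:162267074-162318684, minus strand, RefSeq GRCh38.p14) encodes MDA5, which binds long double-stranded RNA. Its normalised read counts were 60.3, 115 and 68.2 in the proliferating libraries, 569.9, 438 and 512 with NT3 and 347, 448 and 486 with NT4. All 6 senescent control libraries lay above all proliferating libraries, and the mean was 5.75-fold higher (log2 difference 2.55 with SE 0.21, limma adjusted p = 5.18e-10). The counts were 197, 204 and 278 in CCND1 knockdown, 137, 233 and 253 in CDK6 knockdown and 92.7, 135 and 92.1 in dual knockdown. Every library of these 3 groups lay below every control library. IFIH1 fell to 48.4% of the control mean in CCND1 knockdown (log2 difference -1.04 with SE 0.21, limma adjusted p = 0.000724), to 44.5% in CDK6 knockdown (-1.20, SE 0.21, limma adjusted p = 0.000104) and to 22.9% in dual knockdown (-2.13, SE 0.21, limma adjusted p = 4.68e-08). In CDK4 knockdown the counts were 550.2, 348 and 507, within the range of the controls (log2 difference -0.0049 with SE 0.21, limma adjusted p = 0.993). The dual knockdown libraries overlapped the proliferating ones, and the difference between the 2 groups did not pass the threshold (log2 difference 0.43 with SE 0.24, limma adjusted p = 0.13), with a 95% interval of -0.081 to 0.93. It passed under median centring, under quantile normalization and without proliferating replicate 2.

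**Figure D2:**
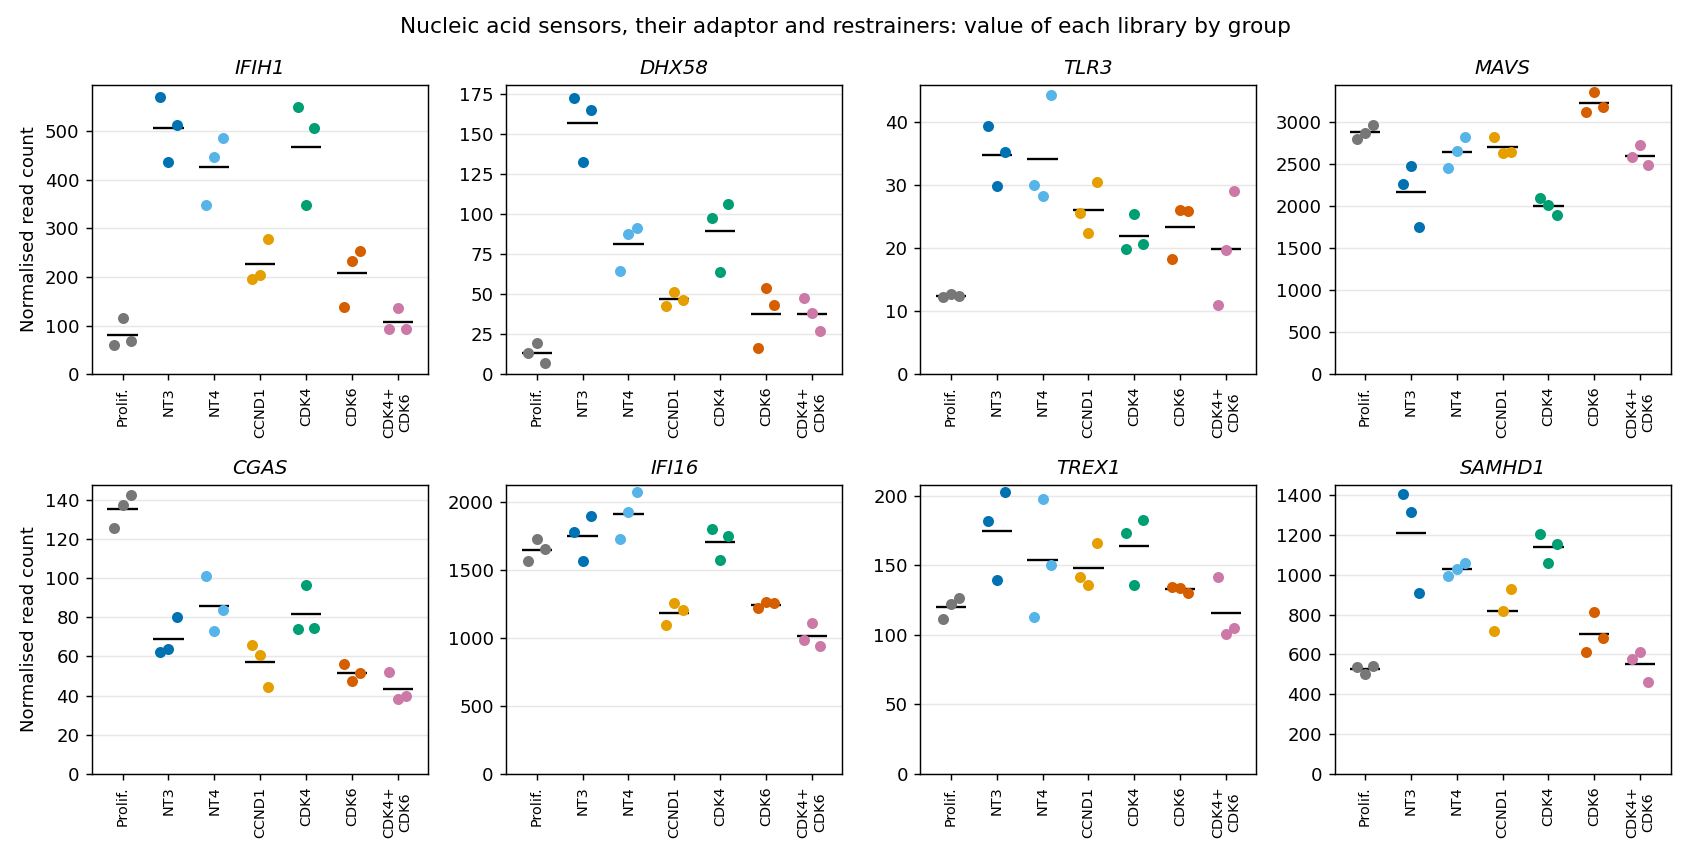
Normalised read count (y axis, linear from 0) of each library in the 7 groups (x axis) for the 8 tested genes, with the group mean as a bar. The group means of IFIH1, DHX58, TLR3 and SAMHD1 are lowest in proliferating cells and highest with NT3. The lowest single libraries of TLR3 (11.04) and SAMHD1 (462) are in dual knockdown. CGAS is highest in proliferating cells at 126 to 143, and MAVS is highest in CDK6 knockdown at 3121 to 3360.

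DHX58 (ENSG00000108771; chr17:42101411-42112714, minus strand) encodes LGP2, a helicase without signalling domains that adjusts the response of MDA5 and RIG-I. Counts were 13.1, 19.2 and 7.09 in proliferating libraries, 172, 133 and 165 with NT3 and 64.5, 87.6 and 91.4 with NT4. DHX58 had the highest fold change of the 8 in senescent controls, 9.07-fold over the proliferating mean (log2 difference 3.10 with SE 0.30, limma adjusted p = 7.56e-09), and the arms did not overlap. It also differed between the control siRNAs, with every NT4 library below every NT3 library (log2 difference -0.95 with SE 0.35, limma adjusted p = 0.0473), a call that was lost in 8 of 17 alternative analyses, leaving out any of NT3 replicate 1, NT3 replicate 3 or any NT4 library among them. Counts were 42.5, 51.2 and 46.1 in CCND1 knockdown, 97.5, 63.9 and 105.998 in CDK4 knockdown, 16.3, 54.0 and 43.1 in CDK6 knockdown and 47.5, 38.2 and 27.0 in dual knockdown. The CCND1, CDK6 and dual libraries were all below the controls (-1.25, SE 0.30, limma adjusted p = 0.00343; -1.70, SE 0.30, limma adjusted p = 0.000113; -1.58, SE 0.30, limma adjusted p = 0.000217), and the CDK4 libraries overlapped them (-0.36, SE 0.30, limma adjusted p = 0.48). Against NT4 alone the difference in CCND1 knockdown did not pass (-0.77, limma adjusted p = 0.131), while CDK6 and dual knockdown still did. Dual knockdown left DHX58 2.86-fold above proliferating cells, with no overlap (log2 difference 1.51 with SE 0.35, limma adjusted p = 0.000675).

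TLR3 (ENSG00000164342; chr4:186069156-186088073, plus strand) is a double-stranded RNA receptor of endosomes, not of the cytosol, and signals through TRIF in place of MAVS. It was the least abundant of the tested genes, so counting error is large: the reads per library ranged from 10 to 46. Normalised counts were 12.2, 12.8 and 12.4 in proliferating libraries, 39.4, 29.8 and 35.2 with NT3 and 30.0, 28.2 and 44.2 with NT4. The arms did not overlap, and TLR3 rose 2.77-fold (log2 difference 1.38 with SE 0.24, limma adjusted p = 3.72e-05). In dual knockdown the counts were 11.04, 19.7 and 29.0, which spanned the widest range of any group, and TLR3 fell to 57.7% of the controls (log2 difference -0.84 with SE 0.24, limma adjusted p = 0.00806). Without dual replicate 1, the lowest library, that call was lost (-0.49, limma adjusted p = 0.118), as it was under quantile normalization. Fold changes in the single knockdowns were -0.38, -0.62 and -0.54 for CCND1, CDK4 and CDK6, none past the threshold (limma adjusted p = 0.253, 0.0939 and 0.0837). The CDK4 and CDK6 libraries, at 19.9, 25.4 and 20.6 and 18.3, 26.1 and 25.9, lay below all 6 controls.

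Promoter sequence was at hand for 7 of the 10 genes (RefSeq, GRCh38.p14, from 250 bases before to 50 after the start site); DHX58, CGAS and ZBP1 had no entry. Both strands were searched for the core of the interferon-stimulated response element (GAAANNGAAA), where interferon-activated factors bind, the core of the gamma-activated sequence (TTCNNNGAA), and the E2F core (TTTGGCGC or TTTCGCGC). Matches of the response element were found in 3.65% of 27305 promoters of the same length, of the gamma-activated core in 7.88% and of the E2F core in 1.18%. IFIH1, TLR3 and AIM2 held matches, which are shown. The first 2 rose in senescent controls, while AIM2 stayed at a few reads. MAVS, IFI16, TREX1 and SAMHD1 held no match of any core searched, and of these TREX1 and SAMHD1 also rose. For IFI16 and AIM2 the start site used lies inside the gene's span, not at its 5′ end. The bases before the IFI16 start site were chr1:159008741-159008990, in a span of chr1:158999976-159055151, and the AIM2 span is chr1:159055051-159147132. Sequence at the 5′ ends of these spans was not searched. Capitals mark the matches; the stretches run 5′ to 3′ on the gene's strand, at chr2:162318685-162318873 (minus) for IFIH1, chr4:186068948-186069161 (plus) for TLR3 and chr1:159076917-159076986 (minus) for AIM2.
IFIH1: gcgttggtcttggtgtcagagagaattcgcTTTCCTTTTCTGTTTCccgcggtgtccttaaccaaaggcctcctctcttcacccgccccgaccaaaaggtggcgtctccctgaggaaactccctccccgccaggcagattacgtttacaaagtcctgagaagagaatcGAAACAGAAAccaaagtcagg
TLR3: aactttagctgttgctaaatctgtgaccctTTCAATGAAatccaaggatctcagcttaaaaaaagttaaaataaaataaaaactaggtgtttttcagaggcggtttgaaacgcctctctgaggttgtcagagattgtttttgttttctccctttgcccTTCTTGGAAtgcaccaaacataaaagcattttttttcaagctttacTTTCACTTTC
AIM2: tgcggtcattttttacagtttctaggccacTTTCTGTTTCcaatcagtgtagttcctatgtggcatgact
With the start site as 0, IFIH1 had 3 response element matches, from -159, -153 and -21, of which the first 2 overlap. TLR3 had 1 that spans the start site, from -4 to 5, and 2 gamma-activated cores from -178 and -50. AIM2 had 1 response element match, from -190. A match describes the letters only and is not a measured binding site.

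MAVS (ENSG00000088888; chr20:3846834-3876118, plus strand) is the adaptor that both RIG-I and MDA5 need, and its fold changes were small. Counts were 2792, 2873 and 2962 in proliferating libraries, 2266, 2477 and 1754 with NT3 and 2456, 2659.7 and 2817 with NT4. It fell in senescent controls to 83.6% of proliferating cells (log2 difference -0.27 with SE 0.075, limma adjusted p = 0.00293), although 1 NT4 library lay within the proliferating range. Against NT4 alone the difference was -0.12 and did not pass (limma adjusted p = 0.226). CDK6 knockdown, with 3121, 3360.0 and 3178, lay above all controls, and MAVS rose to 134% of their mean (log2 difference 0.44 with SE 0.075, limma adjusted p = 8.35e-05). CDK4 knockdown, with 2093, 2015 and 1892, overlapped the controls through NT3 replicate 3, and MAVS fell to 83.2% (log2 difference -0.25 with SE 0.075, limma adjusted p = 0.0259). That call was lost against NT3 alone (-0.10, limma adjusted p = 0.422) and without any 1 of NT4 replicate 3, CDK4 replicate 2 or CDK4 replicate 3 (limma adjusted p = 0.0577 to 0.125). CCND1 knockdown was at 2820.3, 2633 and 2640.2 and dual knockdown at 2577, 2729 and 2493, neither past the threshold (limma adjusted p = 0.0731 and 0.182). In CCND1 knockdown MAVS was called higher against NT3 alone (0.33, limma adjusted p = 0.00486) but not against NT4 alone (0.030, limma adjusted p = 0.854). It was also called higher there without NT3 replicate 2 (0.23, limma adjusted p = 0.0096).

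CGAS (ENSG00000164430; chr6:73423711-73452297, minus strand), the cytosolic DNA sensor, fell in senescent controls and fell further in CCND1, CDK6 and dual knockdown. Its counts were 126, 137 and 143 in proliferating libraries, 62.3, 63.8 and 80.1 with NT3 and 101.3, 73.0 and 83.7 with NT4. Every senescent control library lay below every proliferating one, and CGAS fell to 57.2% of the proliferating mean (log2 difference -0.82 with SE 0.15, limma adjusted p = 7.69e-05). Counts were 55.98, 47.5 and 51.7 in CDK6 knockdown and 51.9, 38.2 and 40.0 in dual knockdown, all below the controls. CGAS fell to 66.9% of the control mean in CDK6 knockdown (log2 difference -0.55 with SE 0.15, limma adjusted p = 0.00626) and to 56.1% in dual knockdown (-0.81, SE 0.15, limma adjusted p = 0.000203), which put dual knockdown at 32.1% of proliferating cells (-1.63, SE 0.18, limma adjusted p = 5.28e-08). In CCND1 knockdown, with 65.9, 60.8 and 44.2, 1 library overlapped the controls and CGAS fell to 73.6% (log2 difference -0.44 with SE 0.15, limma adjusted p = 0.0363), but 10 of 22 alternatives lost this call. Among them were leaving out NT3 replicate 3, NT4 replicate 1, CCND1 replicate 2 or CCND1 replicate 3 (limma adjusted p = 0.0559 to 0.264), NT3 alone as control (0.227) and edgeR on whole reads (edgeR adjusted p = 0.0507). NT3 alone as control also ended the call in CDK6 knockdown (limma adjusted p = 0.073). CDK4 knockdown, with 73.9, 96.4 and 74.6, stayed in the range of the controls (log2 difference 0.085 with SE 0.15, limma adjusted p = 0.766). CGAS shares 180 exon bases with DDX43 on the opposite strand, and the strand setting of the read counting is not given in the sources used here.

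IFI16 (ENSG00000163565; chr1:158999976-159055151, plus strand) encodes a DNA-binding protein of the nucleus and cytosol that works with STING. Counts were 1568, 1726 and 1658 in proliferating libraries, 1779, 1568 and 1897 with NT3 and 1728, 1929.8 and 2073 with NT4, with overlap (log2 difference 0.14 with SE 0.072, limma adjusted p = 0.0808). They were 1094, 1259 and 1208 in CCND1 knockdown, 1221, 1264 and 1256 in CDK6 knockdown and 987, 1112 and 939 in dual knockdown. All 9 of these libraries lay below all 6 controls and below all 3 proliferating libraries. IFI16 fell to 64.9% of the controls in CCND1 knockdown (log2 difference -0.62 with SE 0.072, limma adjusted p = 1.46e-06), 68.2% in CDK6 knockdown (-0.55, SE 0.072, limma adjusted p = 3.03e-06) and 55.4% in dual knockdown (-0.85, SE 0.072, limma adjusted p = 4.02e-09). Dual knockdown stood at 61.3% of proliferating cells (-0.71, SE 0.083, limma adjusted p = 1.5e-07). The 3 knockdown calls held in all 23 alternatives each. CDK4 knockdown, with 1800.4, 1571 and 1755, overlapped the controls (log2 difference -0.095 with SE 0.072, limma adjusted p = 0.418).

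AIM2 (chr1:159055051-159147132, minus strand), the DNA sensor that assembles an inflammasome, and ZBP1 (chr20:57603852-57620426, minus strand), a sensor of Z-form nucleic acid that starts necroptosis, were at the limit of detection. AIM2 had 2, 1 and 2 reads in the NT3 libraries, 2 in 1 NT4 library, 2 in 1 proliferating library, 1 in 1 CCND1 and 1 in 1 CDK4 library and 3 in 1 CDK6 library. It had 0 reads in all 3 dual knockdown libraries. ZBP1 had 2 reads in 1 NT3 library and 0 in the other 20 libraries. A count of 0 allows up to 3 reads in a library, so no difference between groups was detectable at this depth for either gene, and absence is not shown.

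TREX1 (ENSG00000213689; chr3:48465830-48467645, plus strand) is the main cytosolic DNA exonuclease. Counts were 110.9, 122 and 127 in proliferating libraries, 182, 139 and 203 with NT3 and 112.4, 198 and 150.0 with NT4, and 1 NT4 library lay within the proliferating range. TREX1 rose 1.37-fold (log2 difference 0.42 with SE 0.15, limma adjusted p = 0.0208), a call lost with NT4 alone, in a fit with only the groups compared, and without proliferating replicate 1 or NT4 replicate 2 (limma adjusted p = 0.0544 to 0.129). In dual knockdown, with 141, 100.5 and 105.1, it fell to 70.5% of the controls (log2 difference -0.49 with SE 0.15, limma adjusted p = 0.0144), also with overlap and lost in 5 of 23 alternatives, leaving out dual replicate 2 or 3 among them. Counts of 141, 135 and 166 in CCND1 knockdown, 173, 136 and 183 in CDK4 knockdown and 134, 133 and 130.3 in CDK6 knockdown did not pass (limma adjusted p = 0.577, 0.955 and 0.166). All 1448 exon bases of TREX1 are also exons of ATRIP on the same strand in GENCODE v44, so how the reads were divided between them bears on the level of TREX1.

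SAMHD1 (ENSG00000101347; chr20:36889773-36951708, minus strand) cleaves dNTPs and also limits the release of self DNA from stalled replication forks. Counts were 536, 502 and 543 in proliferating libraries, 1406, 1316 and 909 with NT3 and 996, 1031 and 1061 with NT4, without overlap. SAMHD1 rose 2.12-fold (log2 difference 1.07 with SE 0.12, limma adjusted p = 4.7e-08). Counts were 716, 817 and 927 in CCND1 knockdown, 1208, 1059.6 and 1154 in CDK4 knockdown, 612, 814 and 681 in CDK6 knockdown and 578, 613 and 462 in dual knockdown. The CDK6 and dual libraries were all below the controls, 2 of the 3 CCND1 libraries were, and the CDK4 libraries were not. SAMHD1 fell to 73.2% of the controls in CCND1 knockdown (log2 difference -0.44 with SE 0.12, limma adjusted p = 0.00689), 62.7% in CDK6 knockdown (-0.66, SE 0.12, limma adjusted p = 0.000103) and 49.2% in dual knockdown (-1.01, SE 0.12, limma adjusted p = 4.12e-07). The CCND1 call was lost against NT4 alone (-0.34, limma adjusted p = 0.0896) and without CCND1 replicate 1 (-0.35, limma adjusted p = 0.0664). Dual knockdown libraries overlapped proliferating ones (log2 difference 0.055 with SE 0.14, limma adjusted p = 0.739), with a 95% interval of -0.23 to 0.34. Of SAMHD1's exon bases, 1068 are shared with TLDC2 on the opposite strand.

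Compared directly, CDK6 and CDK4 knockdown differed at 6 of the 8 genes. MAVS was higher and IFIH1, DHX58, CGAS, IFI16 and SAMHD1 were lower in CDK6 knockdown, where 17.5% of all tested genes were higher and 17.3% lower. The differences ran from -1.34 for DHX58 (SE 0.35, limma adjusted p = 0.00453) and -1.19 for IFIH1 (SE 0.24, 0.00058) to 0.69 for MAVS (SE 0.087, 2.25e-06). TLR3 and TREX1 did not pass, with 95% intervals of -0.51 to 0.67 and -0.66 to 0.079.

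Dual knockdown was lower than CDK6 knockdown at IFIH1 (log2 difference -0.93 with SE 0.24, limma adjusted p = 0.0131), IFI16 (-0.30, SE 0.083, limma adjusted p = 0.017) and MAVS (-0.31, SE 0.087, limma adjusted p = 0.021), and at none of the 8 higher, where 6.05% of all tested genes were higher and 6.94% lower. No member was called without CDK6 replicate 2, CDK6 replicate 3, dual replicate 1 or dual replicate 3. CCND1 knockdown was higher than dual knockdown at IFIH1 (log2 difference 1.08 with SE 0.24, limma adjusted p = 0.00269) and SAMHD1 (0.57, SE 0.14, limma adjusted p = 0.00395) and lower at 0 of the 8, where 11.2% and 9.12% of all tested genes were higher and lower.

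Whether dual knockdown departed from the added effects of CDK4 and CDK6 knockdown was tested with an interaction term, which passed for 0 of the 8 genes with limma, edgeR or DESeq2, where 2.63% and 3.71% of all tested genes were higher and lower. IFIH1 gave -0.92 (SE 0.32, limma adjusted p = 0.095), with a 95% interval of -1.59 to -0.26. SAMHD1 gave -0.39 (SE 0.18, limma adjusted p = 0.211), with a 95% interval of -0.76 to -0.020. These intervals are not adjusted for the number of genes, and no share of all tested genes is given for them. IFIH1 passed when NT3 replicate 3 or CDK6 replicate 1 was left out. For the other 6, the 95% interval included 0.

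Set against proliferating cells, dual knockdown was higher at DHX58 and lower at CGAS and IFI16, 1 higher and 2 lower of 8, where 32.7% of all tested genes were higher and 32.9% lower. Median centring raised the median of all genes by 0.13 in this comparison, moved the higher share of calls from 49.9% to 61.1%, and added IFIH1 and TLR3 to the higher genes. MAVS, TREX1 and SAMHD1 gave -0.15, -0.068 and 0.055, not past the threshold (limma adjusted p = 0.145, 0.756 and 0.739).

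The 2 non-targeting siRNAs themselves differed at MAVS, higher with NT4 (log2 difference 0.30 with SE 0.087, limma adjusted p = 0.0132), and at DHX58, lower with NT4, 1 higher and 1 lower of 8, where 14.7% of all tested genes were higher and 13.1% lower. The MAVS difference was lost without NT3 replicate 3 or NT4 replicate 3 (limma adjusted p = 0.0593 and 0.0707). Against NT3 alone and NT4 alone, IFIH1 in dual knockdown gave -2.25 and -1.999, SAMHD1 -1.12 and -0.91, and IFI16 -0.79 and -0.91, all past the threshold. MAVS in dual knockdown gave 0.28 (limma adjusted p = 0.0129) and -0.023 (0.86), a call with 1 control siRNA and not with the other.

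**Figure D3:**
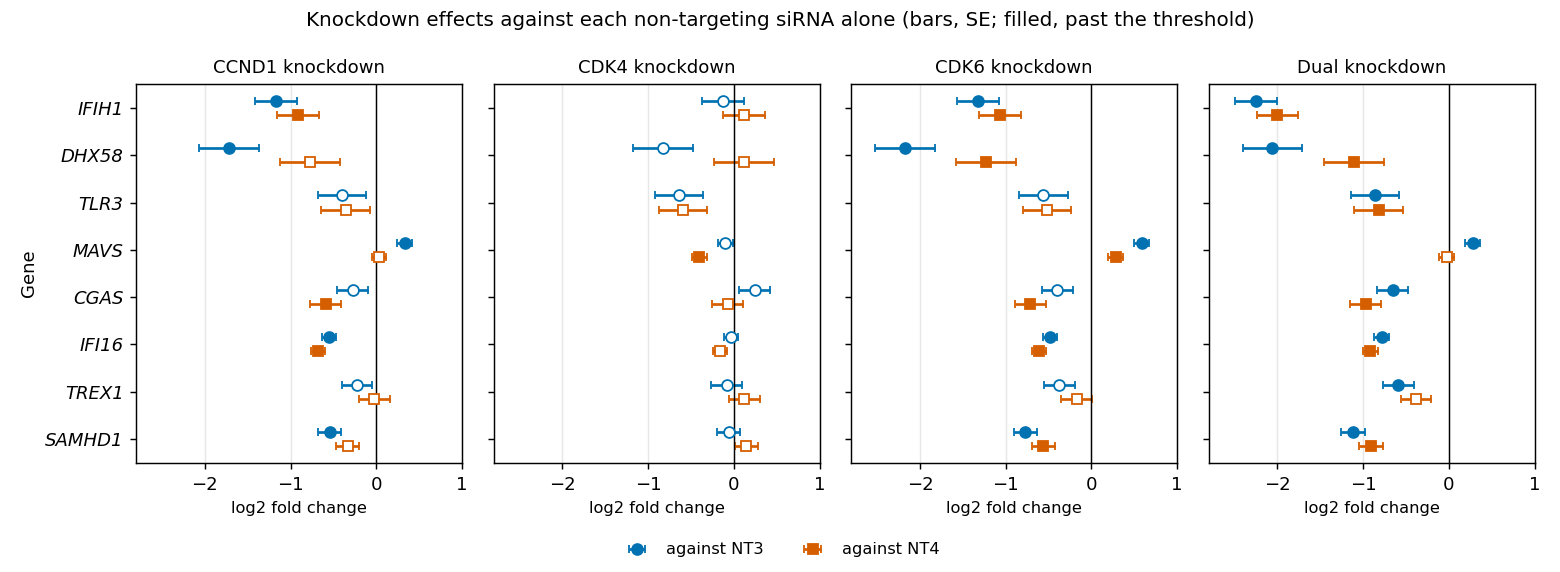
Log2 fold change (x axis) of the 8 tested genes (y axis) in the 4 knockdowns against NT3 alone (circles) and NT4 alone (squares), with standard errors; filled points passed an adjusted p of 0.05. IFIH1 and IFI16 are filled against both controls in CCND1, CDK6 and dual knockdown, while DHX58 moves from -1.72 to -0.77 in CCND1 knockdown and MAVS shifts to the left against NT4 in all 4.

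To compare levels between genes, the group means were divided by the length of each gene's exons in kilobases. On that scale MAVS and IFI16 were the most abundant in proliferating cells (244 and 312 normalised counts per kilobase), followed by TREX1 (82.9), SAMHD1 (48.7), CGAS (32.4), IFIH1 (15.5), DHX58 (3.43) and TLR3 (1.66). IFIH1 was thus below CGAS in proliferating cells, and with NT3 it was above it, at 96.95 against 16.5. In dual knockdown the 2 stood at 20.4 and 10.4. RIGI, the sister sensor of IFIH1, was at 41.6 in proliferating cells and 160.2 with NT3. Exon lengths join all annotated exons, so a level is understated where only some of them are used.

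RIGI belongs to a list of 23 tested partners of RNA sensing, from ubiquitin ligases to the kinase TBK1, of which 19 rose and 1 fell in senescent controls (median log2 fold change 0.42), where 32.6% of all tested genes were higher and 36.1% lower. RIGI went from 430.1 ± 8.30 (SD, n = 3) to 1673 ± 129 (SD, n = 6; log2 difference 1.95 with SE 0.093, limma adjusted p = 5.28e-14). DDX60, a helicase that promotes RIG-I signalling, rose by 1.91 (SE 0.13, limma adjusted p = 2.77e-11), TRIM25, a ubiquitin ligase of RIG-I, by 0.57 (5.35e-07), CYLD, a deubiquitinase that restrains RIG-I, by 1.02 (7.8e-14) and TOMM70, a mitochondrial import receptor that binds MAVS, by 0.20 (0.00362). PCBP2, which promotes turnover of MAVS, was the 1 that fell (log2 difference -0.72 with SE 0.047, limma adjusted p = 1.11e-11). In CCND1, CDK4, CDK6 and dual knockdown 3, 1, 1 and 2 of the 23 rose and 6, 5, 6 and 11 fell (all tested genes: 16.7%, 8.46%, 21.1% and 22.5% higher, 14.4%, 7.55%, 20.8% and 21.5% lower). RIGI fell in CCND1, CDK6 and dual knockdown (-0.47, -0.35 and -0.84; limma adjusted p = 0.000562, 0.00457 and 2.26e-07) and gave -0.014 in CDK4 knockdown (0.945). TRIM25 fell in all 4 knockdowns, from -0.36 in CCND1 to -1.23 in dual knockdown, and TOMM70 in CDK4 (-1.17) and dual knockdown (-0.89). The count in CDK6 knockdown dropped from 7 to 4 without CDK6 replicate 1.

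Partners of DNA sensing went mostly the other way, with 3 of 18 tested genes higher and 11 lower in senescent controls (median -0.51), beside the same 32.6% and 36.1% of all tested genes. The gene of STING was listed as STING1 and TMEM173, but the table held neither symbol, so it is not among the 18. HMGB2, a chromatin protein that helps cGAS bind DNA, fell from 3933 ± 135 (SD, n = 3) to 413 ± 119 (SD, n = 6; log2 difference -3.29 with SE 0.12, limma adjusted p = 1.1e-15). PRKDC, XRCC5 and XRCC6, the subunits of DNA-dependent protein kinase, fell by 1.09, 0.84 and 0.55 (limma adjusted p = 2e-08, 5.78e-13 and 4.82e-09), and ENPP1, which degrades the product of cGAS, fell by 1.57 (9.2e-12). In CCND1, CDK4, CDK6 and dual knockdown 2, 2, 1 and 2 of the 18 rose and 4, 2, 7 and 3 fell. Of all tested genes, 16.7%, 8.46%, 21.1% and 22.5% were higher and 14.4%, 7.55%, 20.8% and 21.5% lower. In dual knockdown both shares of the list were smaller than these. ENPP1 fell in all 4 (-0.53, -0.38, -0.39 and -1.06), and HMGB2 fell in CCND1, CDK6 and dual knockdown (-0.60, -0.87 and -1.09) and rose in CDK4 knockdown (log2 difference 0.38 with SE 0.12, limma adjusted p = 0.0409). Against NT3 alone, HMGB2 in CDK4 knockdown (0.20, limma adjusted p = 0.332) and ENPP1 in CDK4 (-0.23, 0.163) and CDK6 knockdown (-0.24, 0.101) did not pass. PQBP1, a cGAS cofactor, gave 0.037 in senescent controls (limma adjusted p = 0.706) and fell in CCND1, CDK6 and dual knockdown (-0.34, -0.46 and -0.28), though against NT4 alone not in CCND1 (limma adjusted p = 0.0669) or dual knockdown (0.118). The CDK4 count of 4 became 8 without NT3 replicate 3 and 2 without CDK4 replicate 3, and the dual count of 5 became 8 without NT3 replicate 2.

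Of 9 tested inflammasome and necroptosis genes, the pathways of AIM2 and ZBP1, 3 were called higher and 5 lower in senescent controls (median -0.33). Of all tested genes, 32.6% were higher and 36.1% lower. RIPK3, the kinase that ZBP1 engages and 1 of the 3, had 4 reads in the proliferating libraries together, 60 with NT3 and 24 with NT4. It passed the filter mainly through the NT3 libraries, so its difference is given by these reads and not by a test. CASP4, an inflammatory caspase, was called higher by 0.20 (limma adjusted p = 0.00996), but this rested on NT3: its counts were 1082 ± 44.3 in proliferating cells, 1515 ± 159.8 with NT3 and 1025 ± 19.1 with NT4 (SD, n = 3 each), and against NT4 alone it was -0.078 (limma adjusted p = 0.382). CASP1, the inflammasome protease, fell by 0.35 (0.00867), a call lost under median centring (limma adjusted p = 0.0651) and quantile normalization (0.0749). In CCND1, CDK4, CDK6 and dual knockdown 0, 0, 1 and 0 rose and 2, 0, 3 and 2 fell, with RIPK3 counted in the last 2 groups. Of all tested genes, 16.7%, 8.46%, 21.1% and 22.5% were higher and 14.4%, 7.55%, 20.8% and 21.5% lower. The 2 of 9 in dual knockdown is about the share of all tested genes. CASP1 fell in CCND1 and dual knockdown (-0.55 and -0.52) and FADD, a death domain adaptor, in CDK6 knockdown (-0.46). The calls of CASP4 in CCND1 and CDK6 knockdown (-0.33 and -0.34) did not pass against NT4 alone (-0.053 and -0.060, limma adjusted p = 0.688 and 0.591). RIPK3 had 12 reads in the CDK6 and 15 in the dual knockdown libraries together. Its calls there are not read as falls, because high NT3 values brought it past the filter. The dual count of 2 became 1 without any 1 of NT3 replicate 3, NT4 replicates 1 and 2 or dual replicate 1, and the CDK6 count of 4 became 2 without CDK6 replicate 2.

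Among 15 tested genes that clear or edit nucleic acid, as TREX1 does, 7 rose and 5 fell in senescent controls (median 0.099), where 32.6% of all tested genes were higher and 36.1% lower. The 5 that fell were ADARB1, LSM11, RNASEH2A, RNASEH2B and RNASEH2C. ADAR, which edits double-stranded RNA so that MDA5 ignores it, rose by 0.66 (SE 0.078, limma adjusted p = 1.53e-07). The lysosomal nuclease PLD3 rose by 1.11 (5.88e-13), and DNASE1L1 by 0.82 (3.71e-10). In CCND1, CDK4, CDK6 and dual knockdown 1, 1, 3 and 4 rose and 6, 1, 6 and 5 fell (all tested genes: 16.7%, 8.46%, 21.1% and 22.5% higher, 14.4%, 7.55%, 20.8% and 21.5% lower). ADAR fell in CCND1, CDK6 and dual knockdown (-0.26, -0.28 and -0.42), as did PNPT1 and SUPV3L1, which degrade mitochondrial RNA (-0.66 and -0.37 in dual knockdown). DNASE1L1 rose further in CDK4, CDK6 and dual knockdown, by 0.72 in the last. Against a single control siRNA, calls that did not pass were ADAR in CCND1 knockdown (NT3, limma adjusted p = 0.0588), SUPV3L1 in CCND1 knockdown (NT4, 0.204) and DNASE1L1 in CDK4 knockdown (NT4, 0.2). PLD3 was called lower in CCND1 and CDK4 knockdown, with means of 5809 and 5630 beside 6544 in the controls. These PLD3 calls are not given against a single control siRNA. The CCND1 count of 7 became 2 without CCND1 replicate 1. The CDK4 count of 2 became 4 without NT3 replicate 2 and 1 without any 1 CDK4 library.

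All 29 tested interferon-induced genes of a further list rose in senescent controls, with a median log2 fold change of 4.02, where 32.6% of all tested genes were higher. The control siRNAs differed here too, with 1 of the 29 higher and 9 lower with NT4 than with NT3 (median -0.28), where 14.7% and 13.1% of all tested genes were. In CCND1, CDK6 and dual knockdown 28, 29 and 29 fell, with medians of -0.91, -1.15 and -1.93, where 14.4%, 20.8% and 21.5% of all tested genes were lower. These counts are against the mean of both controls, and some falls rest on NT3. STAT2, counted in each, had means of 3324 with NT3 and 2484 with NT4. Its means were 2166, 2549 and 2460 in CCND1, CDK6 and dual knockdown, and the CDK6 and dual libraries overlapped those of NT4. In CDK4 knockdown 0 passed with limma (median -0.078), where 8.46% of all tested genes were higher and 7.55% lower. The CDK4 count was 1 with edgeR, 1 with DESeq2, 1 without NT3 replicate 2 and 3 against NT3 alone. MX1, an antiviral GTPase, went from 42.4 ± 7.39 in proliferating cells (SD, n = 3) to 4542 ± 944 with NT3 (SD, n = 3), 2371 ± 326 with NT4 (SD, n = 3) and 424 ± 84.3 in dual knockdown (SD, n = 3). IFIH1, DHX58 and TLR3 gave -2.13, -1.58 and -0.84 in dual knockdown, beside these medians. The interferon genes IFNB1, IFNA1 and IFNK were listed but did not pass the filter on low values.

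**Figure D4:**
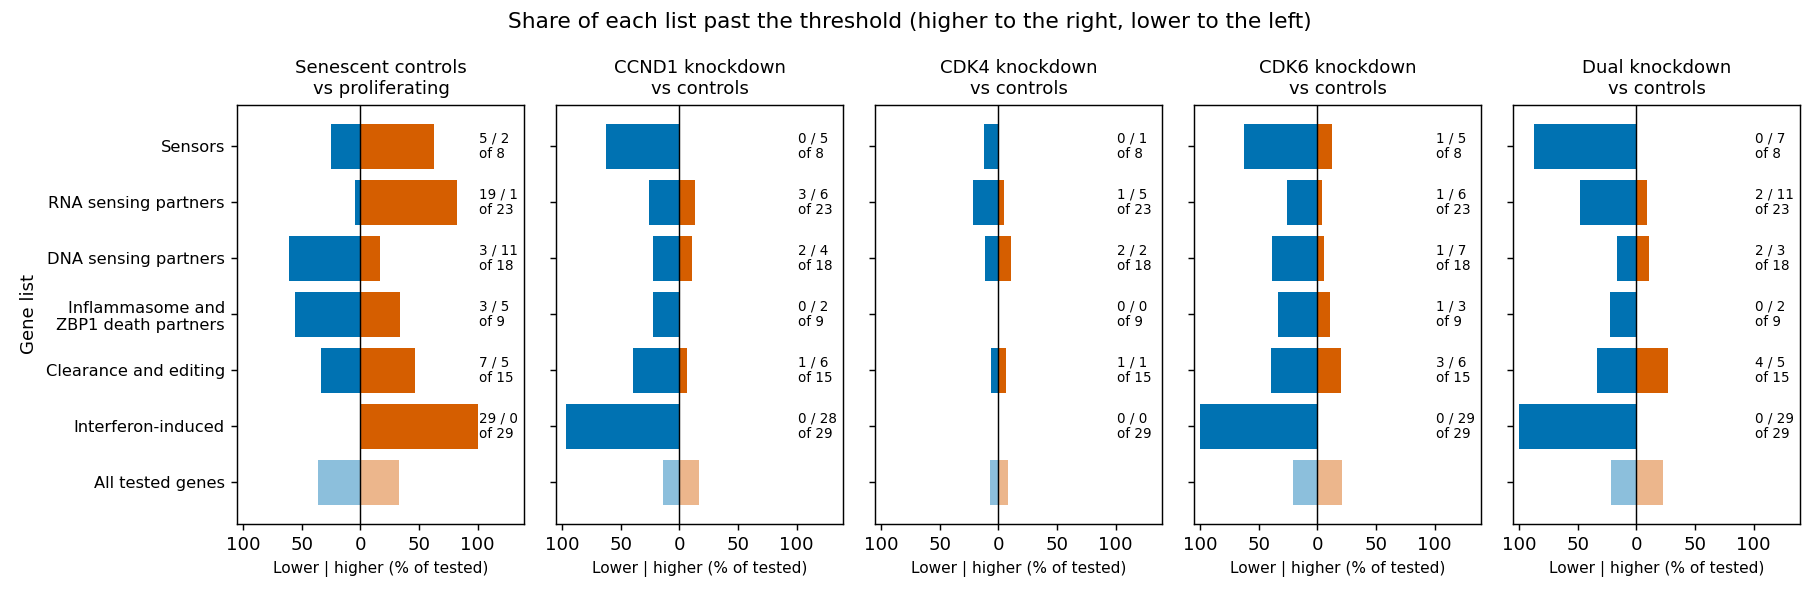
Share of tested genes past the threshold (x axis, higher to the right and lower to the left of 0) for the sensors and 5 lists of partner genes (y axis), with counts of higher and lower genes beside each bar and all tested genes in pale bars. All 29 interferon-induced genes are on one side in senescent controls, CDK6 and dual knockdown, and in CCND1 knockdown 28 are lower and 0 higher. RNA and DNA sensing partners lie mostly on opposite sides in senescent controls (19 and 3 higher, 1 and 11 lower).

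The genes whose profile over the 7 group means was most like that of a sensor were found by the root mean square difference of centred log2 values, with a smaller value meaning more alike. IFIH1 was nearest to ACP5 (0.174) and STC1 (0.182), and 8 of the tested genes lay within 0.25 of it. DHX58 was nearest to IFITM1 (0.214) and ATF3 (0.216), with 5 within 0.25. CGAS was nearest to PCNA, the DNA replication clamp (0.0761), and DEF6 (0.0909), but 194 genes lay within 0.25 of it. PCNA itself was at 1991 ± 14.2 in proliferating cells, 1022 ± 198 in controls and 588 ± 33.8 in dual knockdown (SD, n = 3, 6 and 3). SAMHD1 was nearest to PDZD4 (0.0954) and AGAP11 (0.105), TLR3 to DTNA (0.116) and CFAP119 (0.123), and IFI16 to IER2 (0.0982) and C21orf91 (0.105), with 158, 185 and 575 genes within 0.25. MAVS was nearest to XPO6 (0.0599) and SKI (0.0617) and TREX1 to SKIL (0.0545) and PPP1R3F (0.0619), but 3058 and 2989 genes lay within 0.25 of these flat profiles. ACP5, DEF6, CFAP119, PDZD4 and AGAP11 had at most 34, 45, 18, 20 and 49 reads in a library, so their profiles are imprecise.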

How the data were processed

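RNA-seq values of 21 libraries in 7 groups of 3 were used, from 1 table of 16383 genes listed by Entrez ID, of which 19 had no symbol. The values are a normalised signal: per the submitters' processing notes the authors used Trimmomatic 0.38.1, HISAT2 2.2.1, featureCounts 2.0.3, FastQC 0.74, MultiQC and DESeq2 2.11.40.8 with the human build hg38, and the deposited values are read counts divided by 1 size factor per library. The annotation, strand setting and any gene filter are not given in the sources used here. Every value came out as whole reads (100% within 0.01), which gave the reads per library, 12892442 to 21822152, and allowed count tests as alternatives. Column names carry no replicate number, so numbers follow column order and are names only. The column codes of the irradiated libraries run in 3 stretches, each with 1 library of every irradiated group. Libraries of a stretch did not deviate together (median correlation of deviations from group means over genes 0.037, against -0.017 between stretches).

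Values were taken as log2(value + 1), so fold changes of low genes are understated. The 11579 genes that reached a value of 10 in 3 or more libraries were fitted over all 7 groups with limma 3.58.1 (R 4.3.3, trended variance) and 11 comparisons were made, with Benjamini-Hochberg adjustment over all tested genes and a threshold of 0.05. Non-targeting controls are the mean of the NT3 and NT4 group means. Other pseudocounts, filters, scalings, control sets, a fit of the compared groups alone, a block for the stretches of column codes, edgeR 4.0.16 and DESeq2 1.42.0 on whole reads, and leaving out each library were tried. The fits were tested on simulated data.

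The 10 members and the gene lists were chosen with earlier results of these data known. The text names all members, the siRNA targets, the 2 tested genes nearest to each member over the 7 group means, and at most 6 genes of each list, those with the largest mean and those called in most knockdown comparisons. One gene this rule names is not reported here. The interferon genes, the clearance and editing genes that fell in senescent controls, shared-exon partners and marker genes named beside these were chosen after their values were seen. Exon lengths and shared exons come from GENCODE v44, positions and promoters from RefSeq GRCh38.p14.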

Additional observations from a re-analysis of the deposited data

Results flagged for a closer look

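Of the 8 tested sensors and the named list genes, 4 list genes differed in dual knockdown from the added effects of CDK4 and CDK6 knockdown, by a test of the interaction term, and none of the 8 sensors did. Of all tested genes, 2.63% were higher and 3.71% lower than the sum. Some list genes were named because they were called in most knockdown comparisons of these same data, so the count of 4 is not a separate result. RIGI was lower than the sum by -0.48 on the log2 scale (SE 0.14, limma adjusted p = 0.0469) and DDX60 by -0.82 (SE 0.20, limma adjusted p = 0.0168). PNPT1, a mitochondrial RNA nuclease, was lower by -0.40 (SE 0.12, limma adjusted p = 0.0471). TOMM70 was higher than the sum, by 0.32 (SE 0.086, limma adjusted p = 0.0297). The causes were not tested.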

How the results depend on the processing

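Of 28 member fold changes past the threshold in 6 comparisons, 17 kept direction and side of the threshold in every alternative; 23 of 1030 alternatives changed sign, all for values not past the threshold. Counts of members past the threshold moved as follows. Requiring a mean value of at least 100 tested 5 members and gave 4 in senescent controls, 1 in NT4 against NT3, 3 in CCND1, 4 in dual knockdown and 1 in dual knockdown against proliferating. Requiring an absolute log2 fold change over 1 gave 4, 0, 2, 0, 2 and 3 in senescent controls, NT4 against NT3, CCND1, CDK4, CDK6 and dual knockdown, 2 in CDK6 against CDK4, 0 in dual against CDK6 and 1 in CCND1 against dual knockdown. NT4 against NT3 gave 1 with pseudocount 0.1, no filter, the compared groups alone or no trend. CCND1 gave 3 with NT4 alone, CDK4 gave 0 with NT3 alone, the compared groups alone or no trend, and dual knockdown against proliferating gave 5 with median centring. Leaving out 1 library gave 6 to 8 in senescent controls, 0 to 2 in NT4 against NT3, 4 to 6 in CCND1, 0 to 1 in CDK4, 6 to 7 in CDK6, 6 to 8 in dual knockdown, 0 to 1 for the departure, 5 to 6 in CDK6 against CDK4, 0 to 3 in dual against CDK6, 2 to 3 in CCND1 against dual and 3 to 4 in dual knockdown against proliferating. Signs changed in CDK4 knockdown for IFIH1 (0.12 with NT4 alone, 0.018 with edgeR, 0.013 with DESeq2, -0.13 to 0.20 over left-out libraries), DHX58 (0.12 with NT4 alone), CGAS (-0.072 with NT4 alone, -0.039 to 0.15 over left-out libraries), TREX1 (-0.083 with NT3 alone, -0.082 to 0.15 over left-out libraries) and SAMHD1 (-0.062 with NT3 alone, -0.055 to 0.10 over left-out libraries), in dual knockdown for MAVS (-0.023 with NT4 alone) and in NT4 against NT3 for TLR3 (-0.24 to 0.075 over left-out libraries). The causes were not tested. The columns carry no replicate number, but a fit of the irradiated libraries with a replicate block for the 3 stretches of column codes, an alternative chosen after seeing the data, called 2, 5, 1, 6, 7, 0, 6, 3 and 2 members in the comparisons without proliferating cells, the same members as without the block in a fit of all libraries. It called 1662 to 4859 genes in all in the 4 knockdowns, against 1854 to 5094. Depth limits AIM2 and ZBP1 to reads and makes TLR3 and DHX58 imprecise.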
